A study of Homo sapiens with 18 samples.

Results

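The genes described here are the heat shock transcription factor HSF1 and 9 chaperone genes known as its targets or partners: HSPA1A, HSPA1B, HSPA8, HSPH1, HSP90AA1, HSP90AB1, DNAJB1, BAG3 and HSPE1. They were taken by symbol, and all 10 were among the 15196 gene names listed in all 4 deposited tables. The list was chosen by the ratios of RBM39 over IgG in the RNA immunoprecipitation (RIP), in which HSF1 and HSPA1A stood among the highest, so those ratios are given as a description, and the expression changes of the same genes are set beside them. RBM39 binds RNA and helps to select splice sites in pre-mRNA, and indisulam is a sulfonamide drug that glues it to the ubiquitin ligase receptor DCAF15, so that RBM39 protein is degraded. The study covered 18 libraries of H929 and MM1S, both established human multiple myeloma lines labelled as plasma cells. In H929, 3 libraries were labelled shRBM39 (an shRNA to RBM39) and 3 scramble. In MM1S, 2 libraries were labelled shRBM39, against 2 labelled scramble; 3 others were treated with indisulam, against 3 with DMSO, the vehicle. RIP was done in MM1S, with 1 library from an antibody to RBM39 and 1 from control IgG. The labels give no dose, time or hairpin sequence. Whether numbers 1 and 2 of the MM1S knockdown stand for hairpins or repeats is not stated, nor whether repeats came from separate cultures. The p-values therefore reflect the spread between these samples alone, and part of it may be technical.

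HSF1 is kept inactive in unstressed cells by chaperones that bind it. When unfolded proteins draw these chaperones away, it trimerizes, binds heat shock elements (inverted repeats of the unit GAA) and switches on chaperone genes. HSP70 proteins such as HSPA1A, HSPA1B and the constitutive HSPA8 fold client proteins with J proteins (DNAJB1) and nucleotide exchange factors (HSPH1, BAG3), the HSP90 proteins HSP90AA1 and HSP90AB1 hold kinases and receptors in an active shape, and HSPE1 is the lid of the mitochondrial chaperonin HSPD1. Myeloma cells make large amounts of immunoglobulin and are known to lean on this machinery.

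The heat shock element is shown in the promoters of the members whose windows hold it, because it is the sequence through which HSF1 is known to act. RefSeq promoter windows (build GRCh38.p14, 250 bases before to 50 after a start) were found for 9 of the 10 members, 14 windows in all. The element was searched on both strands as 3 units, GAA NN TTC NN GAA or TTC NN GAA NN TTC written without the spaces (N is any base), and as 2 units, GAA NN TTC or TTC NN GAA, which also lie inside every match of 3. The 3-unit element was in windows of HSPA8, HSP90AA1 and HSP90AB1. The 2-unit element was there too and in windows of HSPA1A, HSPA1B and DNAJB1. Of all 35116 windows in the table, 0.490% held the 3-unit and 13.5% the 2-unit element. Counted by gene, as the members are here, the shares were 0.608% and 16.2% of 27305 genes. These are matches of letters, not measured sites. In the stretches below, each 5′ to 3′ on the gene's strand, capitals mark the 2-unit matches, merged where they overlap. The first 4 stretches are from HSPA8, the most abundant of the members in every table, from the 2 HSP90 genes and from DNAJB1.
HSPA8, chr11:123062137-123062386, minus strand: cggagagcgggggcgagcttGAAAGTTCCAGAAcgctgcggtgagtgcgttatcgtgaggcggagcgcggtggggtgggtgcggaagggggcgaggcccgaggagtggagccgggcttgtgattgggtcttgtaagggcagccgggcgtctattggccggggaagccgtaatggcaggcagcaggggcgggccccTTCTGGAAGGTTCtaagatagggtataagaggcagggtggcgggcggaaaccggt
HSP90AA1, chr14:102087045-102087164, minus strand: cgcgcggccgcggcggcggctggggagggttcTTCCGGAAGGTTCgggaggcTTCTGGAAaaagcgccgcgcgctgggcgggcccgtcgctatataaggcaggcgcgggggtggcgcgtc
HSP90AB1, chr6:44247753-44247872, plus strand: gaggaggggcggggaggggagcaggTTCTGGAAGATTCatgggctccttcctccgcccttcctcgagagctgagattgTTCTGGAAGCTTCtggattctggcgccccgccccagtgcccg
DNAJB1, chr19:14518398-14518517, minus strand: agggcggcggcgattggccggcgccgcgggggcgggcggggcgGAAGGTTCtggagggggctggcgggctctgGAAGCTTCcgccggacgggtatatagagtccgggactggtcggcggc

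HSPA1A and HSPA1B are shown because their near identity bears on the main RIP value below. Their 250 upstream bases were 93.6% identical (235 of 251 aligned columns), against 51.2% between HSPA1A and HSPA8. Their coding sequences are known to be nearly the same, so how reads were divided between them is uncertain in every table.
HSPA1A, chr6:31815393-31815542, plus strand: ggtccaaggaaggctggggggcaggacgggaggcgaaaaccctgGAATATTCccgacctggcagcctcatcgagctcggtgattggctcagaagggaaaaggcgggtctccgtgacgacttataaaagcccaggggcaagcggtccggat
HSPA1B, chr6:31827588-31827737, plus strand: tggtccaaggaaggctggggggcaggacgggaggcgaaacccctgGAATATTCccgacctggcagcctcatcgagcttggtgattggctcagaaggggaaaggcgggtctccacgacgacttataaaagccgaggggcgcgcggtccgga

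HSPE1 and HSPD1 lie head to head, and the HSPE1 window held no match. A run of 2 overlapping 3-unit matches lay between the HSPE1 start and one of the HSPD1 starts, in that HSPD1 window, 294 to 311 bases upstream of the HSPE1 start. It is shown on the HSPD1 strand.
HSPD1, chr2:197500031-197500090, minus strand: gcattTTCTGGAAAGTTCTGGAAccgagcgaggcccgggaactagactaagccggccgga

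RBM39 was checked first, since it is the targeted gene. In H929, RBM39 was 37.5 ± 1.65 FPKM in the libraries labelled shRBM39 and 4.50 ± 0.0631 FPKM in those labelled scramble (SD, n = 3 each), the direction opposite to the labels. The H929 groups are therefore given as labelled, and neither is named as the knockdown. In MM1S, RBM39 was 58.5 ± 8.89 TPM with shRBM39 and 190.4 ± 20.0 TPM with scramble (SD, n = 2 each; limma adjusted p = 0.0121). RBM39 mRNA under indisulam was at 197.8 ± 42.1 TPM and under DMSO at 187.6 ± 8.89 TPM (SD, n = 3 each; log2 difference 0.05, limma adjusted p = 0.828), and without indisulam replicate 3 it was called higher (0.24, adjusted p = 0.00899). Depth is unknown, since the tables hold FPKM and TPM but no counts. Among the indisulam libraries, replicate 3 stood apart, with 74.2% of genes below both others of its group, and results with and without it are given below. Of the MM1S shRBM39 libraries, replicate 2 had the lower value for 59.6% of genes. All 8 plasma cell markers were tested in each expression table. In H929 libraries labelled shRBM39, 6 were called higher and 2 lower, in the MM1S knockdown 0 were called, and with indisulam 1 was higher and 3 lower. In H929 and with indisulam the markers thus went both ways. Their summed level was 3968 to 4188 FPKM in H929 libraries labelled shRBM39 and 2554 to 2714 FPKM in those labelled scramble, 2077 to 3053 TPM with shRBM39 and 1772 to 1945 TPM with scramble in MM1S, and 2895 to 3112 TPM with indisulam and 3448 to 3625 TPM with DMSO. Of the 5 T cell markers, 4 were under 1 in every expression library, with CD3D and CD3G at 0 in MM1S; the other, CD3E, gave nearly all of a sum that was lower in all 3 comparisons (in H929 15.5 to 18.3 FPKM in libraries labelled shRBM39, 39.2 to 46.9 FPKM in those labelled scramble). In the same order of groups, the 5 myeloid markers summed to 13.4 to 14.7 and 25.1 to 26.9 FPKM in H929, 7.58 to 11.8 and 17.1 to 22.2 TPM in the MM1S knockdown, and 7.22 to 8.31 and 9.51 to 10.6 TPM in the indisulam comparison, mostly CD68. Fibroblast or muscle markers in H929 summed to 5.46 to 5.86 and 15.7 to 17.0 FPKM, nearly all ACTA2, and stayed at or under 2.50 TPM in MM1S. B cell markers, mostly CD79B, summed to 55.0 to 57.6 and 48.0 to 49.7 FPKM in H929 and overlapped in MM1S, and epithelial ones summed to 0.356 to 0.878 and 1.49 to 2.41 FPKM in H929 and stayed at or under 6.82 TPM in MM1S. The part of these markers in the results was not tested. In bulk RNA, fewer cells of a type and less RNA per cell cannot be told apart.

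In the RIP, HSF1 and HSPA1A were high with the RBM39 antibody and low with IgG, HSPA1B and HSPE1 were the reverse, HSP90AB1 was somewhat higher with the antibody, and the other 5 members differed little. These values chose the members, come from 1 library each and have no replicate check. HSF1 had 143.2 FPKM in the RBM39 RIP and 5.97 FPKM in the IgG RIP, a 24.0-fold ratio. Its log2((RBM39 + 1)/(IgG + 1)) was 4.37, the sixth highest of the 10966 genes with at least 1 FPKM in either library. HSPA1A, the stress-inducible HSP70, had 27.9 FPKM in the RBM39 RIP and 0.541 FPKM in the IgG RIP, a log2 ratio of 4.23 and the seventh rank. These ranks lean on the pseudocount of 1. With 0.1 added instead, the log2 ratio of HSF1 was 4.56 at rank 273 and that of HSPA1A 5.45 at rank 117.

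**Figure D1:**
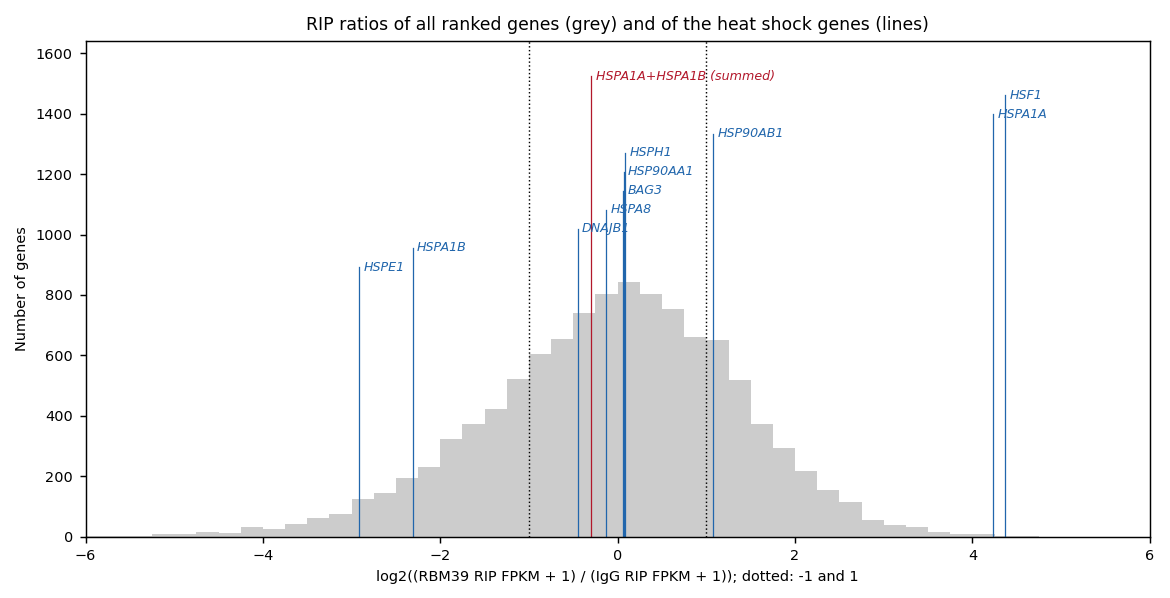
Number of genes (vertical axis) by log2 ratio of RBM39 RIP over IgG RIP, with 1 added to each FPKM value (horizontal axis), for the 10966 ranked genes in grey; lines mark the 10 heat shock genes (blue) and the sum of HSPA1A and HSPA1B (red), their heights have no meaning, and dotted lines stand at -1 and 1. HSF1 (4.37) and HSPA1A (4.23) stand far to the right, HSPA1B (-2.31) and HSPE1 (-2.91) to the left, and the summed HSPA1 genes (-0.29) among the bulk.

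HSP90AB1, the constitutive cytosolic HSP90, had 594.7 FPKM in the RBM39 RIP and 281.5 FPKM in the IgG RIP, a log2 ratio of 1.08 at rank 2238. Its inducible counterpart HSP90AA1 had 192.4 and 183.5 FPKM in the RBM39 and IgG RIP (0.07). HSPH1, an HSP110 exchange factor, had 9.25 and 8.69 FPKM (0.08), and BAG3, a co-chaperone of selective autophagy, had 10.95 and 10.4 FPKM (0.07), in that order of libraries. HSPA8 had 1104 FPKM in the RBM39 RIP and 1206 FPKM in the IgG RIP (-0.13), and DNAJB1 42.5 and 58.4 FPKM (-0.45). HSPA1B had 8.02 FPKM in the RBM39 RIP and 43.8 FPKM in the IgG RIP (-2.31, rank 10262), and HSPE1 8.87 and 73.4 FPKM (-2.91, rank 10637). Of all ranked genes 22.7% had a log2 ratio of at least 1 and 23.9% of at most -1. Of the members it was 3 and 2 of 10, and nothing is read from that, since the list rests on these ratios. The median log2 ratio was 0.07 for the members and 0.02 for all ranked genes. RBM39 itself had 62.1 FPKM in the RBM39 RIP and 126.5 FPKM in the IgG RIP.

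The 2 HSPA1 genes, which share most of their sequence, stood on opposite sides, and their sum did not stand out. HSPA1A and HSPA1B together had 35.96 FPKM in the RBM39 RIP and 44.3 FPKM in the IgG RIP, a log2 ratio of -0.29 at rank 6493. HSPA1A made up 77.7% of that sum in the RBM39 RIP and 1.22% in the IgG RIP. In the 16 expression libraries its share was never near the first of these. It was 2.57% and 8.94% with shRBM39 and 2.43% to 2.86% with scramble in MM1S, 0.807% to 3.00% with indisulam and 1.80% to 2.00% with DMSO, and 4.66% to 6.66% in H929 libraries labelled shRBM39 and 4.48% to 5.61% in those labelled scramble. Whether reads of the pair were assigned differently in the RBM39 RIP was not tested.

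**Figure D2:**
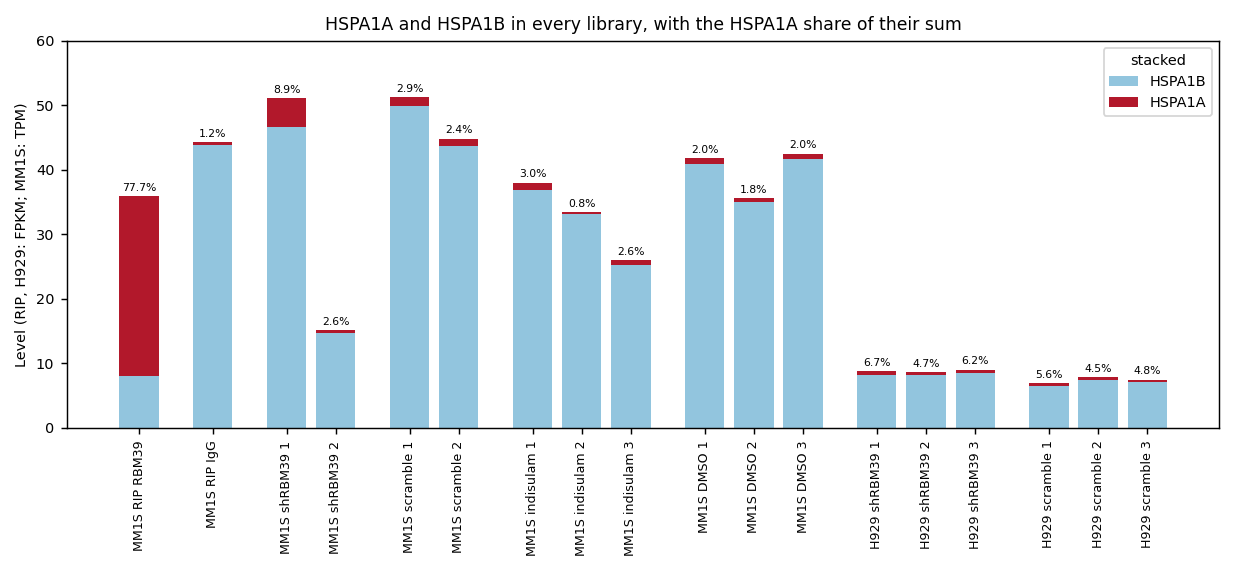
Level (vertical axis, FPKM for RIP and H929, TPM for MM1S expression) of HSPA1B (light blue) with HSPA1A (red) stacked on it, in each of the 18 libraries (horizontal axis); the percentage above a bar is the HSPA1A share of the sum. HSPA1A is most of the bar only in the RBM39 RIP (77.7%), whose total height is close to that of the IgG bar.

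To set the RIP levels against expression in the same line, each gene's percentile was taken among the 10328 ranked genes found in both MM1S expression tables. The RIP values are FPKM and the expression values TPM, made separately, so the percentiles are a description only. HSF1 stood at percentile 93.8 in the RBM39 RIP, 27.8 in the IgG RIP, 78.6 in MM1S scramble cells and 86.9 in DMSO cells. The RBM39 RIP was thus nearer to the expression level than the IgG RIP was, for HSF1. HSPE1 stood at 37.8 in the RBM39 RIP and 85.6 in the IgG RIP, against 98.5 in scramble and 98.1 in DMSO cells, so here the IgG RIP was the nearer one. HSPA1A stood at 67.4 in the RBM39 RIP and 5.93 in the IgG RIP, against 6.02 and 6.17 in scramble and DMSO cells. HSPA1B was the mirror image, at 35.3 in the RBM39 RIP and 76.2 in the IgG RIP, against 78.1 and 76.7.

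The partner of HSPE1 differed from it. HSPD1, named after its values were seen, had 391.6 FPKM in the RBM39 RIP and 118.2 FPKM in the IgG RIP, a log2 ratio of 1.72 against -2.91 for HSPE1. HSPE1 also overlaps the readthrough gene HSPE1-MOB4, so its level is uncertain. Of 99 other genes of the folding machinery, 91 were ranked, 29 at a log2 ratio of at least 1 and 16 at -1 or below. Of all ranked genes the shares were 22.7% and 23.9%. Among the chaperonins 6 of 9 reached 1, HSPD1 included, and nothing is read from that count. The highest were TCP1 (2.08) and CCT6A (1.73), subunits of the cytosolic ring that folds actin and tubulin, while CCT4 stood at -0.72. Beyond them, PDIA6, an ER disulfide isomerase (2.88), BAG5, an exchange factor for HSP70 (2.71), IER5, a regulator that acts on HSF1 (2.10), and the ER HSP70 HSPA5 (1.97) were high. SUGT1, an HSP90 co-chaperone (-2.51), the deacetylase HDAC6 (-2.06), DNAJC8 (-1.99) and HSBP1, which binds HSF1 trimers (-1.77), were low.

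Across the expression libraries the members spanned more than 3 orders of magnitude, and their order differed between the tables. FPKM and TPM are both per length, so levels can be compared between genes within a table. In MM1S scramble cells HSPA8 led at 936.5 TPM, followed by HSP90AB1 at 820.2, HSPE1 at 641.5, HSP90AA1 at 164.1, HSF1 at 47.9, HSPA1B at 46.8, DNAJB1 at 36.55, HSPH1 at 31.7, BAG3 at 9.70 and HSPA1A at 1.28 TPM (means, n = 2). The libraries of HSPA8 and HSP90AB1 overlapped, as did those of HSF1 and HSPA1B, and all other neighbours in that order were apart. In H929 libraries labelled scramble, HSPA8 led at 1060 FPKM, before HSP90AB1 at 406.6, HSP90AA1 at 153.1, BAG3 at 33.8, HSPE1 at 22.3, DNAJB1 at 21.8, HSF1 at 20.5, HSPA1B at 7.04, HSPH1 at 5.18 and HSPA1A at 0.365 FPKM (means, n = 3). There the values of HSPE1, DNAJB1 and HSF1 overlapped in part. HSPE1 and BAG3 held different places in that order in the 2 lines, a description only, since the tables were made separately.

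**Figure D3:**
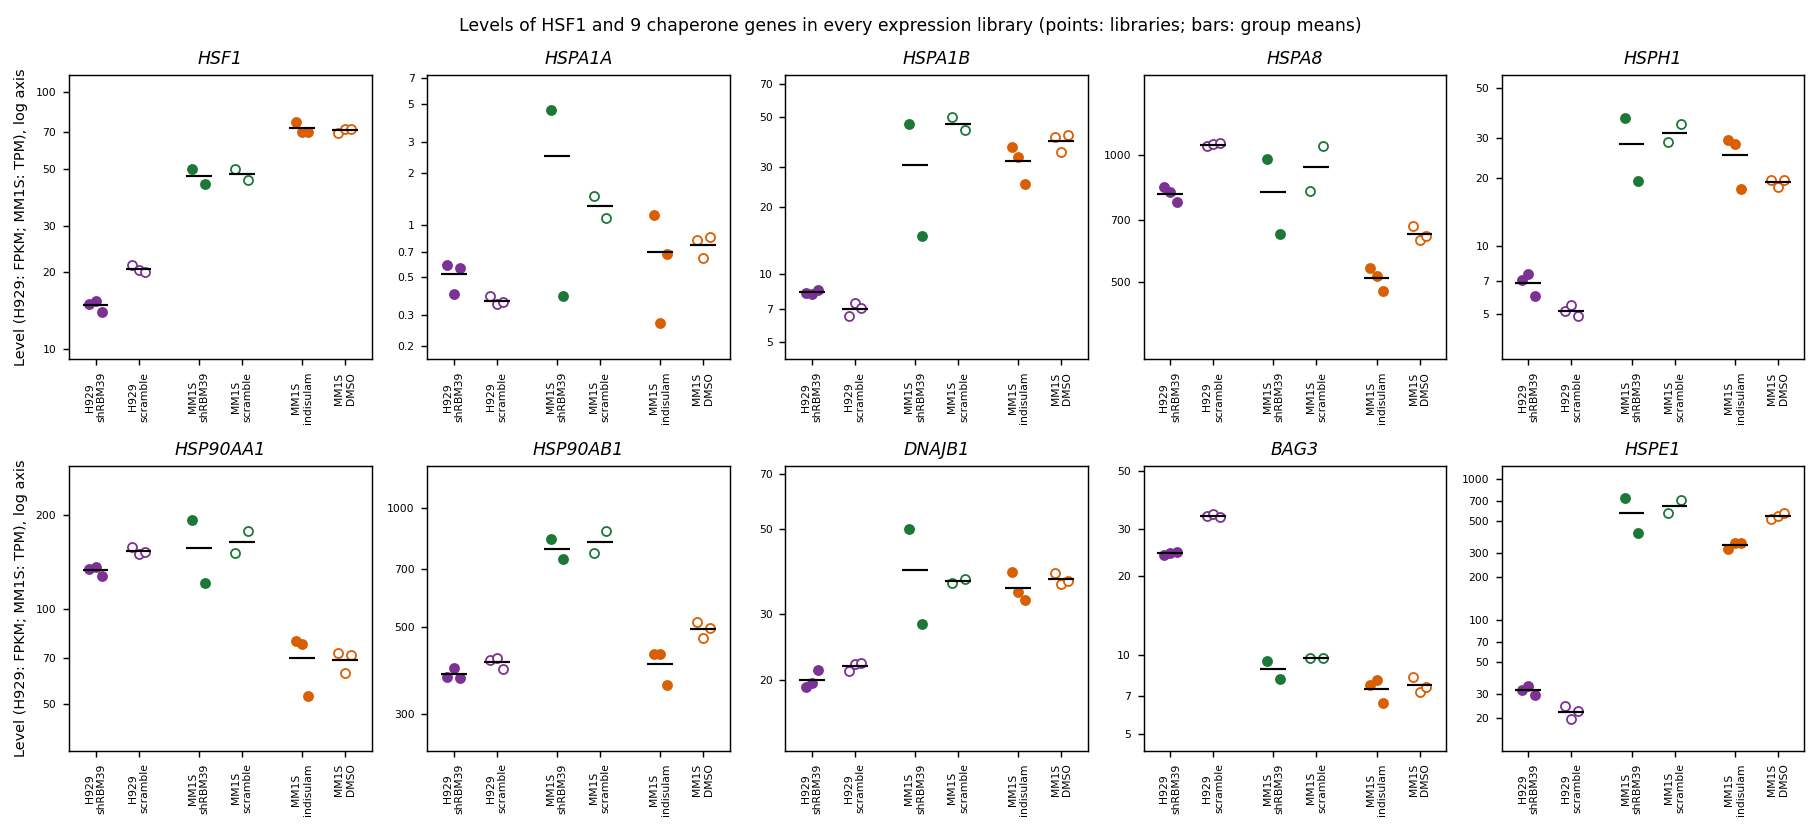
Level of each heat shock gene (vertical axis, log scale, FPKM in H929 and TPM in MM1S) in the 16 expression libraries, by group (horizontal axis); points are libraries, filled for shRBM39 or indisulam and open for scramble or DMSO, and bars are group means. HSF1 separates the H929 groups (13.9 to 15.5 against 20.0 to 21.2 FPKM) and neither pair of MM1S groups, and shRBM39 replicate 2 in MM1S (right green filled point) is below replicate 1 for all 10 genes.

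In H929, HSF1, HSPA8 and BAG3 were lower in the libraries labelled shRBM39, and HSPE1, HSPH1 and HSPA1B were higher; these libraries had more RBM39 transcript, so the values are not read as knockdown. HSF1 had 15.0, 15.5 and 13.9 FPKM in the libraries labelled shRBM39, against 21.2, 20.3 and 20.0 FPKM in those labelled scramble. The groups were well apart. On the log2 scale HSF1 was at -0.45 (SE 0.0553; limma adjusted p = 8.7e-06). The median over all genes tested was -0.13, so relative to it HSF1 was at -0.31. Further log2 differences in H929 are followed by the value relative to that median. Of the 10360 genes tested, 72.2% were called at an adjusted p below 0.05, 24.1% higher and 48.1% lower; of the members 9 of 10 were tested, 3 higher and 5 lower. A share of called genes as high as that makes the members' count no result of its own. With the libraries scaled to equal medians, 54.3% of all calls were higher, against 33.4% on the deposited values.

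HSPA8 had 839.2, 816.9 and 774.4 FPKM in the libraries labelled shRBM39, against 1051, 1062 and 1068 FPKM in those labelled scramble, with a log2 difference of -0.39 (relative -0.25; limma adjusted p = 1.8e-06). BAG3 had 23.9, 24.5 and 24.7 FPKM, against 33.7, 34.4 and 33.3 FPKM with the scramble label, a log2 difference of -0.46 (relative -0.32; limma adjusted p = 9.5e-07). Both genes, like HSF1, were lower in every library labelled shRBM39 and stayed below the median gene. HSPE1 was on the other side, with 31.8, 33.8 and 29.3 FPKM in the libraries labelled shRBM39 and 24.5, 19.8 and 22.6 FPKM in those labelled scramble, a log2 difference of 0.49 (relative 0.62; limma adjusted p = 5.0e-05). HSPH1 had 7.12, 7.52 and 5.99 FPKM, against 5.14, 5.50 and 4.89 FPKM with the scramble label (0.35, relative 0.48; limma adjusted p = 0.00146). HSPA1B had 8.25, 8.19 and 8.48 FPKM, against 6.50, 7.49 and 7.12 FPKM (0.21, relative 0.35; limma adjusted p = 0.00849). These 3 genes were higher in every library labelled shRBM39, so members of this one machinery lay on both sides.

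HSPA1A was under 1 FPKM throughout and was not tested, at 0.400 to 0.589 FPKM in libraries labelled shRBM39 and 0.351 to 0.386 FPKM in those labelled scramble. The HSP90 genes and DNAJB1 differed least. HSP90AA1 was 132.9 ± 4.54 FPKM with the shRBM39 label and 153.1 ± 3.83 FPKM with the scramble label (SD, n = 3 each), a log2 difference of -0.20 (relative -0.07; limma adjusted p = 5.99e-04) that under median scaling was -0.04 and no longer called (adjusted p = 0.417). HSP90AB1 was 378.7 ± 11.9 and 406.6 ± 13.6 FPKM under the shRBM39 and scramble labels, with overlapping groups. Its log2 difference of -0.10 (limma adjusted p = 0.0406) was 0.06 under median scaling and -0.28 under quantile normalization. The call was also lost with no filter (adjusted p = 0.0588), with limma without trend and robust (0.106) and when any one of scramble replicates 1 and 2 or shRBM39 replicates 1 and 3 was left out (0.0545 to 0.162). DNAJB1, at 20.0 ± 1.13 and 21.8 ± 0.583 FPKM in the same order, was not called (-0.12, limma adjusted p = 0.0617) and was 0.04 under median scaling. In all, 7 of the 9 tested members had groups that did not overlap, as did 74.7% of all genes tested.

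Of the 99 other folding genes, 86 were tested in H929, with 21 higher and 33 lower, beside 24.1% and 48.1% of all genes tested. Under median scaling 43 were higher and 21 lower. The lists named below hold few genes each, and nothing is read from their counts. None of the 15 other J proteins tested was called higher and 11 were lower, among them DNAJC2, a J protein of the ribosome (11.5 against 20.0 FPKM in libraries labelled shRBM39 and scramble; log2 difference -0.75), DNAJA2 (13.3 against 19.1 FPKM; -0.49) and DNAJC7 (45.6 against 64.2 FPKM; -0.49). The median of the J proteins was -0.34, against -0.13 for all genes tested. In the same order of labels, the HSP90 co-chaperones CHORDC1 (9.00 against 28.9 FPKM) and PPID (7.78 against 14.8 FPKM) were lower, and UNC45A, which chaperones myosin, was higher (22.7 against 16.6 FPKM). Of the ER and mitochondrial chaperones, 8 of 14 were higher and 1 lower. The ER lectin CALR was 672.4 against 438.2 FPKM, the ER HSP70 HSPA5 239.8 against 199.0 FPKM, and SDF2L1, an ER co-chaperone, 105.4 against 77.7 FPKM. Of 13 other heat shock factors and HSF1 regulators tested, 4 were higher, among them HSF2 (6.62 against 4.31 FPKM; limma adjusted p = 6.4e-06), and 5 were lower, among them HSBP1 (3.93 against 6.91 FPKM) and the acetyltransferase CREBBP (8.54 against 13.9 FPKM). The small heat shock protein HSPB1 was higher (29.8 against 20.0 FPKM). Of 11 other heat-induced genes tested, 6 were lower, among them ATF3, a stress transcription factor (4.68 against 18.8 FPKM), SQSTM1 (66.1 against 118.8 FPKM) and SERPINH1, a collagen chaperone known to be an HSF1 target (8.11 against 17.2 FPKM). The 3 that were higher were HMOX1, which breaks down heme (23.0 against 13.0 FPKM), TXNRD1, a thioredoxin reductase (26.1 against 22.1 FPKM), and GADD45B (43.8 against 35.7 FPKM).

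**Figure D4:**
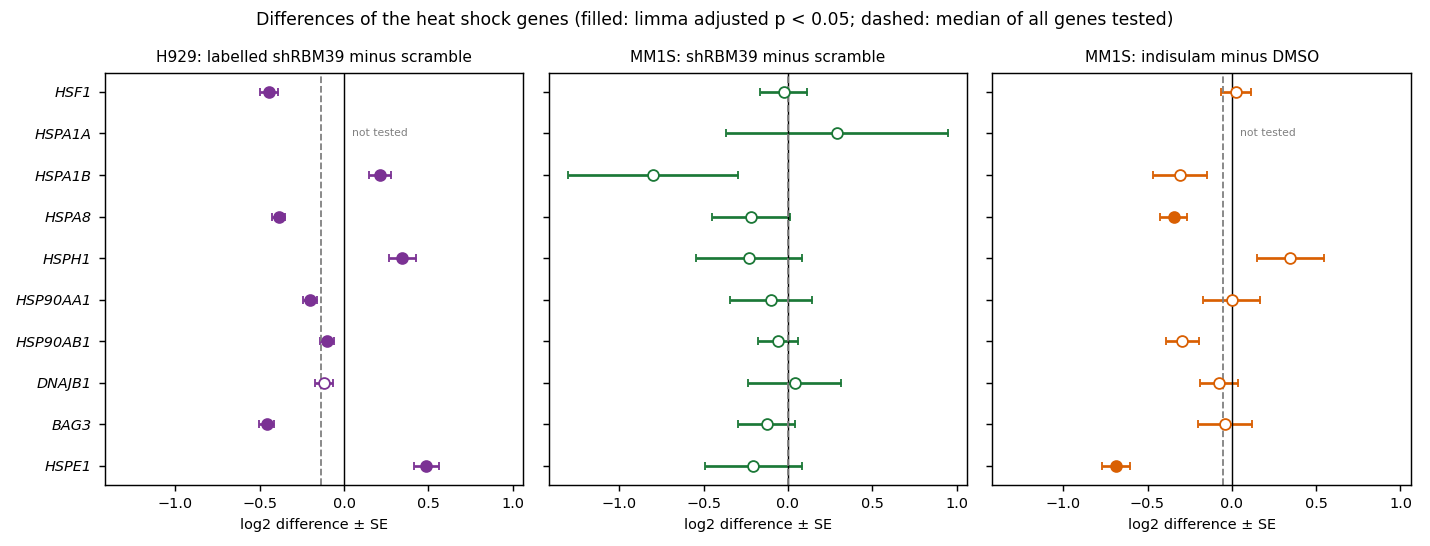
Log2 difference (horizontal axis, error bars SE) of each heat shock gene (vertical axis) in H929 libraries labelled shRBM39 minus scramble (3 and 3), MM1S shRBM39 minus scramble (2 and 2) and MM1S indisulam minus DMSO (3 and 3); filled points had a limma adjusted p below 0.05, and the dashed line is the median of all genes tested. Called members lie on both sides in H929, none is called in the MM1S knockdown, and HSPA8 (-0.35) and HSPE1 (-0.69) are called with indisulam.

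In the MM1S knockdown no member passed the test, although RBM39 itself fell. Of the 14152 genes tested, 10.3% were called, 3.97% higher and 6.35% lower; of the 10 members 0 were, 0 had an unadjusted limma p below 0.05, and limma without trend and robust also called 0. HSF1 had 50.2 and 43.9 TPM with shRBM39, against 50.3 and 45.4 TPM with scramble, overlapping values that differed by -0.03 in log2 (limma, SE 0.138 and adjusted p = 0.922). HSPA1B had 46.6 and 14.8 TPM with shRBM39, against 49.8 and 43.7 TPM with scramble (log2 difference -0.80, SE 0.507, limma adjusted p = 0.332). HSPA1A had 4.57 and 0.39 TPM with shRBM39, against 1.47 and 1.09 TPM with scramble (log2 difference 0.29, SE 0.658, limma adjusted p = 0.798). The shRBM39 libraries were thus far apart from each other for both HSPA1 genes, one near or above the scramble level and the other below it.

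Most of the others differed in the same way. DNAJB1 had 50.1 and 28.1 TPM with shRBM39, on either side of 36.1 and 37.0 TPM with scramble. HSPE1 had 737.8 and 414.5 TPM with shRBM39, against 576.6 and 706.4 TPM with scramble. HSPH1 had 37.1 and 19.3 TPM with shRBM39, against 28.9 and 34.6 TPM with scramble. In these genes, in HSP90AA1 and in HSPA1A, the scramble values lay between the shRBM39 values. HSPA8 had 982.3 and 650.8 TPM with shRBM39, against 822.8 and 1050 TPM with scramble. HSP90AA1 had 191.9 and 120.9 TPM, against 151.0 and 177.3 TPM, and HSP90AB1 831.2 and 742.2 TPM, against 768.5 and 871.8 TPM, each with shRBM39 and then scramble. BAG3, at 9.52 and 8.13 TPM with shRBM39 and 9.69 and 9.71 TPM with scramble, was the one member whose groups did not overlap, as was so for 62.4% of all genes tested. All 10 members were lower in shRBM39 replicate 2 than in replicate 1, beside 59.6% of all genes. Without shRBM39 replicate 1 HSPA1B was called lower (-1.60, limma adjusted p = 0.0425), with the lone shRBM39 library assumed to vary like the scramble ones. Without shRBM39 replicate 2, or without either scramble library, limma called 0 of all genes tested (2296 to 4605 at an unadjusted p below 0.05).

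The knockdown called 3 of 89 tested folding genes higher and 4 lower, beside 3.97% and 6.35% of all genes tested. Nothing is read from that count. Higher were HSP90B1, the HSP90 of the ER (1429 against 987.6 TPM with shRBM39 and scramble; limma adjusted p = 0.0427), DNAJC7 (88.3 against 55.7 TPM; adjusted p = 0.0368) and the autophagy receptor SQSTM1 (238.8 against 134.7 TPM; adjusted p = 0.0374). Lower were the mitotic kinase PLK1 (29.6 against 124.5 TPM; adjusted p = 0.0116), TRIB1 (25.3 against 55.8 TPM), the deacetylase SIRT1, which acts on HSF1 (4.93 against 10.1 TPM), and the HSP90 co-chaperone FKBP5 (8.95 against 18.3 TPM). PLK1 is also a cell cycle gene. The calls rest on all 4 libraries: without any one of them 0 of these genes were called higher and 0 to 1 lower, and 0 were higher under limma without trend and robust, either replicate block, or no filter.

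With indisulam, HSPA8 and HSPE1 fell, and HSF1 did not pass the test. Of the 13445 genes tested, 29.9% were called, 8.47% higher and 21.5% lower; of the 9 members tested 0 were higher and 2 lower, close to the share in all genes. On median-scaled values 46.7% of all calls were higher and on quantile-normalized values 52.1%, against 28.3% on the deposited ones. HSPE1 had 316.1, 350.1 and 353.6 TPM with indisulam, against 521.1, 549.2 and 574.0 TPM with DMSO. All 3 indisulam libraries lay below all 3 DMSO libraries, and limma gave a log2 difference of -0.69 ± 0.0819 (SE) at an adjusted p = 0.00122. The adjusted p of HSPE1 stayed between 1.3e-04 and 0.0145 when each library was left out in turn. HSPA8 had 538.4, 517.4 and 476.6 TPM with indisulam, against 677.6, 627.3 and 641.0 TPM with DMSO, again apart, and the limma log2 difference was -0.35 ± 0.0802 (SE) at an adjusted p = 0.0173. Its call was lost without any one of the DMSO libraries (adjusted p = 0.0686 to 0.0890), under median scaling (0.149) and under quantile normalization, where the difference was -0.08 (adjusted p = 0.520). With the replicate number as a block the adjusted p of HSPA8 was 0.0530.

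HSP90AB1 had 425.4, 426.8 and 355.6 TPM with indisulam, against 512.6, 467.8 and 496.1 TPM with DMSO. Its groups too were apart, but the log2 difference of -0.29 missed the threshold (SE 0.0964, limma adjusted p = 0.0579), and it was 0.06 under quantile normalization. Groups were apart for 3 members, and for 47.3% of all genes tested. HSF1 had 76.5, 70.0 and 69.7 TPM with indisulam, against 69.4, 71.5 and 71.4 TPM with DMSO, which overlapped (limma log2 difference 0.02 ± 0.0877 SE, adjusted p = 0.856). HSPH1 had 29.6, 28.3 and 17.9 TPM with indisulam, against 19.6, 18.3 and 19.5 TPM with DMSO (0.35, SE 0.201, limma adjusted p = 0.231). Replicates 1 and 2 were above every DMSO library and replicate 3 below them all. Without indisulam replicate 3, HSPH1 was called higher (0.57, limma adjusted p = 4.92e-04) and HSP90AB1 lower (-0.21, adjusted p = 0.0140), HSPA8 and HSPE1 were still called, and 9350 genes in all were called, against 4024 with it. HSPH1 was also called under median scaling (0.36, adjusted p = 0.0167).

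HSPA1B had 36.9, 33.2 and 25.3 TPM with indisulam, against 40.9, 35.0 and 41.7 TPM with DMSO (-0.31, limma adjusted p = 0.193), with overlapping groups. HSPA1A, at 0.27 to 1.14 TPM with indisulam and 0.64 to 0.85 TPM with DMSO, was not tested. HSP90AA1 was 69.8 ± 14.7 TPM with indisulam and 68.9 ± 5.37 TPM with DMSO, DNAJB1 35.1 ± 3.22 and 36.9 ± 1.31 TPM, and BAG3 7.43 ± 0.758 and 7.66 ± 0.510 TPM, in that order of groups (SD, n = 3 each). None of these 3 was called (limma adjusted p = 0.995, 0.647 and 0.867), and all had overlapping groups. The members' median log2 difference was -0.07, against -0.05 over all genes tested.

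Of 89 other folding genes tested, 3 were higher with indisulam and 25 lower, beside 8.47% and 21.5% of all genes tested. The lists named below hold few genes each, and nothing is read from their counts. Leaving out 1 library gave 1 to 32 higher and 14 to 30 lower, the 32 without indisulam replicate 3, and under quantile normalization 19 were higher and 16 lower. Of the chaperonins 5 of 9 were lower and 0 higher, among them CCT7 (122.1 against 202.5 TPM with indisulam and DMSO; limma adjusted p = 6.48e-04), CCT5 (90.7 against 143.0 TPM) and CCT3 (166.9 against 216.2 TPM); their median log2 difference was -0.37. HSPD1, the ring for which HSPE1 is the lid, was not called, at 367.8, 318.7 and 215.0 TPM with indisulam and 275.9, 260.5 and 279.1 TPM with DMSO (limma adjusted p = 0.686). Exchange factors and HSP70 partners gave 3 of 8 lower. BAG1 was at 52.9 against 108.2 TPM, HSPBP1 at 29.2 against 46.1 TPM and BAG2 at 0.46 against 1.11 TPM, indisulam first in each. BAG2 passed the filter only through the DMSO libraries, where it was the higher, so nothing is read from its call. Among HSP90 co-chaperones 4 of 12 were lower, with FKBP5 at 3.34 against 13.0 TPM, PTGES3 at 158.2 against 230.7 TPM and AHSA1, the activator of the HSP90 ATPase, at 63.5 against 91.4 TPM, and CHORDC1 was higher at 26.6 against 10.6 TPM. UBB, a polyubiquitin gene (644.1 against 1037 TPM), and the small heat shock protein HSPB1 (9.74 against 26.3 TPM) were lower, and SQSTM1 was higher (214.8 against 153.6 TPM). ER and mitochondrial chaperones gave 6 of 14 lower, among them CALR (447.0 against 663.7 TPM), the mitochondrial protease CLPP (99.5 against 165.7 TPM) and the disulfide isomerase PDIA4 (165.4 against 225.6 TPM), and 1 higher, the ER J protein DNAJB9 (79.8 against 42.1 TPM). Of HSF1 regulators, VCP, a segregase of ubiquitinated proteins (97.4 against 177.3 TPM), and PLK1 (34.9 against 73.9 TPM) were lower, and 0 of 14 were higher.

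Set against expression in MM1S with all libraries, no member at a RIP log2 ratio of at least 1 was called. Of the members tested, 8 of 10 had negative log2 differences with shRBM39 and 7 of 9 with indisulam. Members at a ratio below 0 had negative differences, except DNAJB1 with shRBM39. Whether ratio and difference go together across the members was not tested. HSF1, at a RIP log2 ratio of 4.37, had log2 differences of -0.03 with shRBM39 and 0.02 with indisulam. HSPA1A, at 4.23, had 0.29 with shRBM39 (SE 0.658). How reads were divided between HSPA1A and HSPA1B is uncertain. Their sum, at a RIP ratio of -0.29, had -0.75 with shRBM39 and -0.30 with indisulam. HSP90AB1, at 1.08, had -0.06 with shRBM39 and -0.29 with indisulam, none of them called. The members that fell with indisulam, HSPE1 and HSPA8, had RIP ratios of -2.91 and -0.13. With shRBM39 HSPE1 had -0.21 and HSPA8 -0.22, neither called. HSPA1B, at a RIP ratio of -2.31, had -0.80 with shRBM39 and -0.31 with indisulam, neither called. DNAJB1, at -0.45, had 0.04 and -0.07 in that order, neither called. Across genes, which are not independent replicates, Pearson's r between RIP ratio and log2 difference was 0.03 with shRBM39 (9860 genes) and 0.03 with indisulam (9594 genes). With indisulam 22.0% of genes at a RIP log2 ratio of at least 1 were called lower, against 23.7% of all genes in both tables. With shRBM39 these shares were 5.82% and 7.67%.

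**Figure D5:**
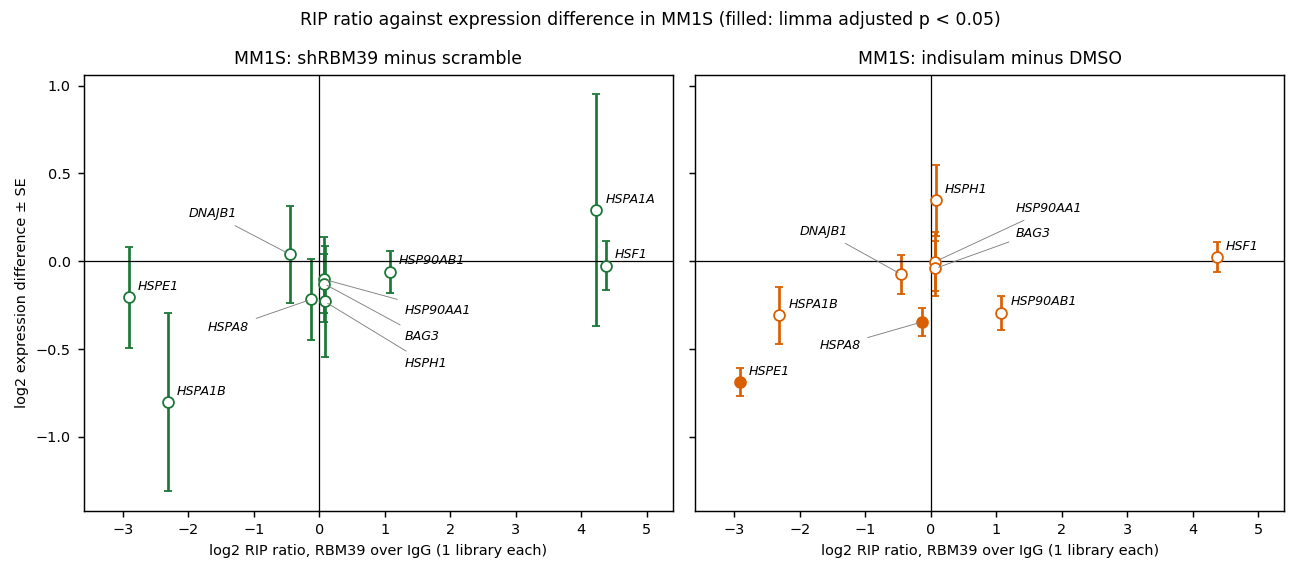
Log2 expression difference in MM1S (vertical axis, error bars SE; shRBM39 minus scramble on the left, indisulam minus DMSO on the right) against the log2 RIP ratio of RBM39 over IgG (horizontal axis, 1 library each) for the heat shock genes; filled points had a limma adjusted p below 0.05, and HSPA1A was not tested with indisulam. HSF1 is far to the right (4.37) and at -0.03 and 0.02 on the vertical axis, and the called HSPE1 (-2.91) and HSPA8 (-0.13) are left of 0.

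Likeness of pattern was measured as Pearson's r of log2(value + 1), centred on each table, over the 16 expression libraries and 9267 genes tested in all 3 comparisons, with no p. The genes most like HSF1 were DAPK3 (0.947), TICAM1 (0.945) and MPRIP (0.945), and among the members BAG3 (0.868). For HSF1, 88.1% of the squared deviations lay in the H929 libraries, as did 78.1% for BAG3, so this likeness is mainly that of the H929 split. HSPA1A was itself tested only in the MM1S knockdown and was added to those genes, so its pattern is that of a gene near the floor. The genes most like HSPA1A were SCO1 (0.887), PLEKHH3 (0.867) and DNAJB1 (0.862). For HSPA1A 85.2% of the squared deviations lay in the 4 MM1S knockdown libraries and for DNAJB1 80.2%, where the shRBM39 libraries differed from each other. HSF1 and HSPA1A had an r of 0.14.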

How the data were processed

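Values of 16 H929 and MM1S expression libraries and 2 RIP libraries were used as deposited. Per the labels, TRIzol was used to extract RNA and a SMARTER mRNA kit to build the libraries. The aligner, counter and annotation behind the values were not given in the sources used here. Per the submitters' processing notes the builds are GRCm38 and mm10, both of the mouse, whereas cells and symbols are human, so no coordinates come from the tables. The H929 and RIP tables hold FPKM made by the authors. Both MM1S expression tables are named FPKM, but the deposited values add up to the same total in every column and are TPM; the test written for FPKM was used on them. Columns were matched to samples by number, with 0 left unmatched. Nameless rows of the MM1S knockdown (834) hold 0.436% to 0.459% of its TPM, those of the indisulam libraries (473) 0.174% to 0.237%. No counts were used, so no depth or counting interval is given.

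The fits used limma 3.58.1 with trend and robust in R 4.3.3, two-sided, on log2(value + 1) of all genes that reached 1 in at least the number of libraries of the smaller group, and a call is a Benjamini-Hochberg adjusted p under 0.05. Differences are on that scale, which understates low genes. RIP ratios are log2((RBM39 + 1)/(IgG + 1)) where at least 1 of the RIP libraries reached 1 FPKM. Alternatives were median scaling, quantile normalization, a pseudocount of 0.1, other filters (none, or 5), plain limma, a replicate block, each library left out, and HSPA1A and HSPA1B summed; a crossed block was added after the data were seen. The members, the 9 lists of other folding genes and the tests were chosen with earlier results of these data known. Of each list, up to 3 called genes per direction by adjusted p may be named, and for RIP up to 2 highest and 2 lowest, of which the text gives examples; the members and RBM39 are given in each comparison, and HSF1 and HSPA1A get the 3 genes most like them in pattern. Some genes that this rule allows are not reported here. Replicate numbers were not taken as pairs. The fits were tested on simulated data with independent noise. The planted changes were larger than the difference of any member, so that test does not bear on the members' calls. Other tools were Python 3.11.15, pandas 2.3.3, NumPy 2.4.6 and Biopython 1.88.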

Additional observations from a re-analysis of the deposited data

Results flagged for a closer look

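In all, 94 members and other folding genes, RBM39 included, were tested in both H929 and the MM1S knockdown. Of these, 25 (26.6%) had groups that did not overlap and that differed in opposite directions in the 2 lines. Of all 9509 genes tested in both, 33.6% did so, and 14.8% had groups apart in the same direction. None of the 10 heat shock members was among the 25. In the knockdown BAG3 alone of the members had groups apart, so nothing is read from that. The difference between the lines was not tested, and in H929 RBM39 goes against the labels. The genes among the 25 called in both comparisons follow. RBM39 had a log2 difference of 2.81 in H929 libraries labelled shRBM39 against scramble, and -1.69 with shRBM39 in MM1S. SQSTM1 had -0.84 in H929 and 0.82 in MM1S. DNAJC7 had -0.49 in H929 and 0.66 in MM1S. SIRT1 had 0.73 in H929 and -0.91 in MM1S. In H929 SIRT1 passed the filter only through the libraries labelled shRBM39, where it was the higher. Nothing is read from its H929 call.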

How the results depend on the processing

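The H929 calls of HSF1, HSPA8, BAG3, HSPE1, HSPH1 and HSPA1B, and the indisulam call of HSPE1, kept their direction and side of the threshold under every alternative run. In H929, median scaling left 3 members called lower, and turned HSP90AB1 to 0.061 and DNAJB1 to 0.044 (log2; 0.031 for DNAJB1 with quantile normalization). In the MM1S knockdown limma called 0 genes with no filter (4966 at an unadjusted p below 0.05), and HSPA1A has no value under a filter at 5. HSF1 there was 0.017 with median scaling and 0.036 with quantile normalization, which put HSP90AB1 at 0.11. With indisulam, 1 member was called higher under median scaling and 1 under quantile normalization, and 1 lower under quantile normalization, under limma without trend and robust and under the replicate block. Quantile normalization put HSP90AA1 at 0.23, HSP90AB1 at 0.064 and DNAJB1 at 0.075, and median scaling HSP90AA1 at 0.010. Summing HSPA1A and HSPA1B left 1 member at a RIP ratio of at most -1. The replicate block called 255 genes in the knockdown, where same-numbered libraries deviated oppositely (r = -0.142), and a crossed replicate block called 772; in the other comparisons r was -0.148 to 0.137, with no comparison above 0.1 for every number. The causes were not tested.

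Leaving out 1 library at a time gave 0 to 1 knockdown members called lower and 0 to 465 genes called in all. The ranges of log2 difference there were -0.12 to 0.069 for HSF1, -0.71 to 1.29 for HSPA1A, -0.51 to 0.080 for HSPA8, -0.68 to 0.22 for HSPH1, -0.43 to 0.23 for HSP90AA1, -0.15 to 0.031 for HSP90AB1, -0.37 to 0.44 for DNAJB1 and -0.62 to 0.21 for HSPE1. With indisulam it gave 0 to 1 members higher, 1 to 3 lower and 1849 to 9350 genes in all, with -0.019 to 0.048 for HSF1, -0.10 to 0.18 for HSP90AA1, -0.092 to 0.034 for BAG3 and -0.056 to 0.24 for RBM39. A group cut to 1 library was assumed to vary like the other group. Depth is unknown for every library, and the RIP has no replicate.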
